A study of Homo sapiens with 4 samples.

Results

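The heat shock proteins and their J-domain (DNAJ) co-chaperones were followed in the human lung cancer cell line H1792 after treatment with ACBI1. Genes were taken by symbol: the HSPA, HSPB, HSP90A and DNAJA, DNAJB and DNAJC families, plus HSPD1, HSPE1, HSPH1, HSP90B1, HSF1 and HSF2. Of 61228 genes in the count files, 73 matched, and the 64 with 10 or more counts in at least 2 libraries are the members described here. They held 0.933% to 1.11% of the counts of a library.

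The study compared 2 libraries from cells given the solvent DMSO with 2 from cells given ACBI1, each for 96 h, with the ACBI1 dose written as 1 mM in the labels. Both groups are labelled wild type. ACBI1 is a PROTAC, a molecule that brings the chromatin remodelling ATPases SMARCA2 and SMARCA4, and PBRM1, to the VHL ubiquitin ligase for degradation. It acts on proteins, so that transcript counts do not check the treatment. The labels do not say whether replicates were separate cultures, and p-values measure the spread between these libraries, which may be technical.

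Chaperones bind unfolded proteins and keep them from aggregating. HSP70 proteins do this in cycles of ATP binding and hydrolysis: J-domain proteins deliver clients and trigger hydrolysis, and exchange factors such as the HSP110 proteins reset the cycle. HSP90 proteins finish the folding of kinases and receptors, HSPD1 and HSPE1 form the folding chamber of mitochondria, and small heat shock proteins hold misfolded proteins. Heat shock factors switch on the cytosolic genes under stress, whereas the unfolded protein response switches on the set that works in the endoplasmic reticulum (ER).

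Gene counts summed to between 64281850 and 86010100 per library, and levels are given as CPM, counts per 1000000 gene counts after TMM scaling. Epithelial keratin genes and EPCAM were detected, but NKX2-1 had 0 counts in each library and 5 of 10 lung epithelial markers stayed under 1 CPM in each. The summed level of that list was 982 and 1035 CPM with DMSO and 323 and 202 CPM with ACBI1. Most of that sum was KRT7, with a mean of 679 CPM with DMSO and 120 CPM with ACBI1, while EPCAM was at 5.38 and 2.78 CPM with DMSO and at 15.6 and 4.84 CPM with ACBI1. A fibroblast list of 3 genes summed to 19.2 and 60.5 CPM with DMSO and 1.23 and 3.17 CPM with ACBI1, an endothelial list of 3 genes to 12.6 and 48.5 against 0.0112 and 0.0458 CPM, and 4 leukocyte markers to at most 0.348 CPM in each library. Nearly all of the endothelial sum with DMSO was PECAM1, at 12.2 and 48.1 CPM, while VWF was at 0.295 and 0.320 CPM. No fibroblast or endothelial gene was at 0 in every library, and of the leukocyte genes CD3E was. All libraries are labelled as the cell line H1792, and the part of these shifts in the results below was not tested. In such bulk samples fewer cells expressing a gene and less RNA per cell cannot be told apart.

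Of 12 members listed for the ER, 6 fell with ACBI1, among them HSPA5 and HSP90B1. The cytosolic HSP90 genes and HSPA8 overlapped between groups and were not called, and 2 J-domain genes of mitochondria rose. The lists for the ER, the cytosol and mitochondria leave out 32 members and need not be complete. They were chosen with earlier results of these data known, and a direction shared by a list depends on which genes it holds. Of the 32 members in no list, 20 had a positive and 12 a negative log2 change, and 4 were called lower. All 64 members could be tested with edgeR's quasi-likelihood test. With a Benjamini-Hochberg adjusted p under 0.05 over all 19159 genes tested, 2 members were higher with ACBI1, 12 were lower and 50 were not called. Over all genes, 17.4% were called (6.75% higher and 10.6% lower), and the 14 called members are 21.9% of 64. At an unadjusted p under 0.05 there were 24 members, beside 33.9% of all genes. The median log2 change was -0.10 over the members and 0.01 over all genes tested. The groups did not overlap in 44 of the 64 members, 17 of them with ACBI1 higher and 27 with ACBI1 lower, while 63.2% of all genes had no overlap (31.1% higher, 32.2% lower). Leaving out ACBI1 replicate 1 gave 5 called members, and leaving out ACBI1 replicate 2 gave 7, where the share over all genes was 6.89% and 8.84%. With the replicate number as a further term, 34 members were called, beside 41.3% of all genes. On simulated counts of 18693 genes, 192 of them given a change, the test found 20.8% of those with a log2 change of 1 and 63.5% of those with 2. Far fewer genes changed there than were called here, and the adjusted p depends on that share. These rates are therefore not the power of this comparison, and a member not called may still have changed.

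**Figure D1:**
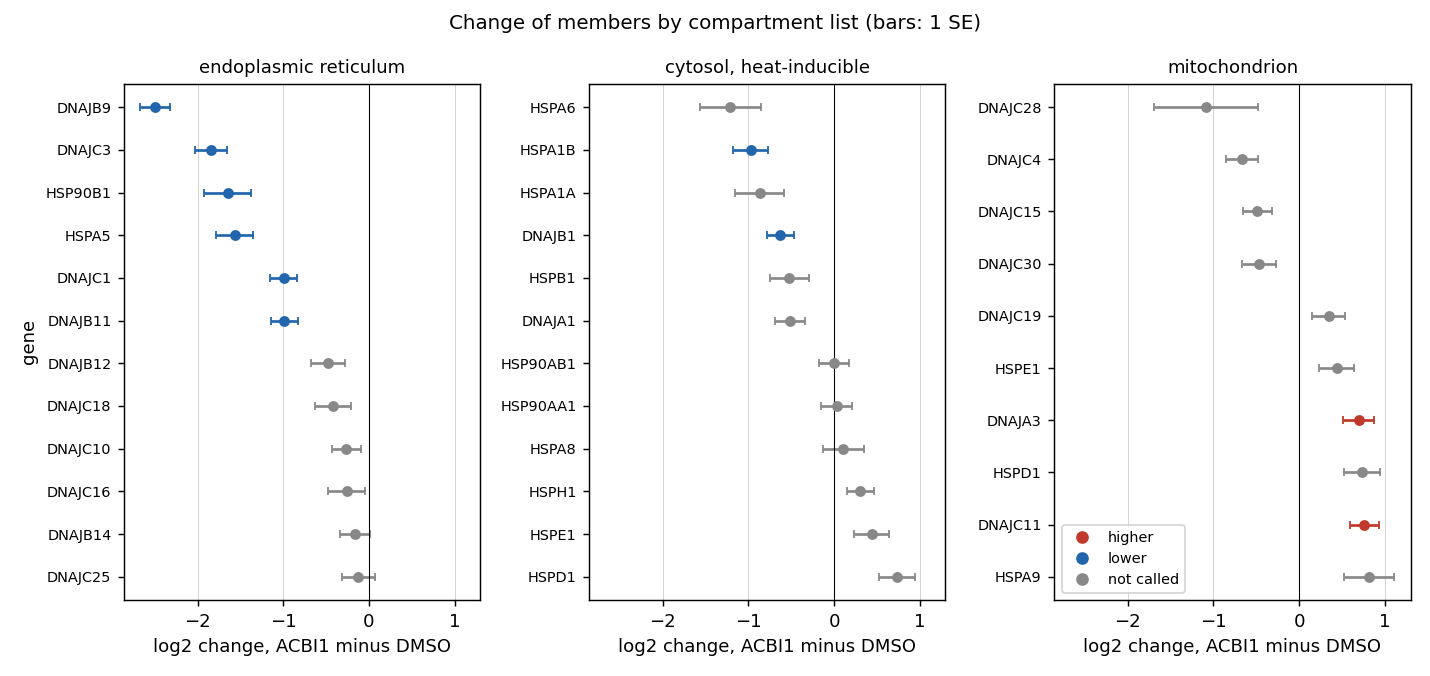
Log2 change (ACBI1 minus DMSO, horizontal axis) of the members in the ER, cytosolic heat-inducible and mitochondrial lists, with bars of 1 SE; blue and red points have an adjusted p under 0.05. All 12 members of the ER list, which need not be complete, lie below 0, and 6 of them are called lower. The mitochondrial list spans both sides with 2 genes called higher. HSPD1 and HSPE1 are in the second and the third panel.

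Of the 13 genes listed for the ER, 12 were members. Of these, 6 were called, each of them lower, beside 10.6% of all genes called lower. The median log2 change of the 12 was -0.73. HSPA5 encodes BiP, the HSP70 protein of the ER and the main sensor-binding chaperone of the unfolded protein response. It was at 2082 and 2155 CPM in DMSO replicates 1 and 2, and at 820 and 608 CPM in ACBI1 replicates 1 and 2. Both ACBI1 libraries lay far under both DMSO libraries, and DMSO was 2.97 times as high (log2 change -1.57, SE 0.22, edgeR adjusted p 0.00884). HSP90B1 encodes GRP94, the HSP90 protein of the ER, which folds integrins and Toll-like receptors. Its level was 1605 and 2240 CPM with DMSO and 504 and 721 CPM with ACBI1, a log2 change of -1.65 (SE 0.27, edgeR adjusted p 0.0138). The groups did not overlap, although the call was lost without ACBI1 replicate 1 (log2 change -1.41, adjusted p 0.0543).

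Of the J-domain genes of the ER list, 4 fell: DNAJB9, DNAJC3, DNAJB11 and DNAJC1. DNAJB9, also called ERdj4, helps to clear misfolded ER proteins and restrains the stress sensor IRE1. It was at 83.4 and 70.4 CPM with DMSO and at 13.8 and 13.4 CPM with ACBI1, which made DMSO 5.65 times as high (log2 change -2.50, SE 0.17, edgeR adjusted p 0.00193). DNAJC3, or p58IPK, a lumenal co-chaperone of BiP, was at 110 and 138 CPM with DMSO and at 32.3 and 36.8 CPM with ACBI1. Its log2 change was -1.84 (SE 0.19, edgeR adjusted p 0.00424). The DMSO and ACBI1 values of both genes were far apart, and HSPA5, DNAJB9 and DNAJC3 were the members called whichever single library was left out.

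DNAJB11, or ERdj3, which binds unfolded secretory proteins, was at 74.9 and 86.4 CPM with DMSO and at 39.8 and 41.6 CPM with ACBI1 (log2 change -0.99, SE 0.16, edgeR adjusted p 0.0129). DNAJC1, a J-domain protein of the ER membrane, was at 111 and 110 CPM against 59.4 and 51.6 CPM (log2 change -0.99, SE 0.16, edgeR adjusted p 0.0127). Both had lower values in each ACBI1 library than in either DMSO library, and DMSO was 1.98 and 1.99 times as high. DNAJB11 was not called without ACBI1 replicate 1 or 2 (adjusted p 0.0755 and 0.0534), nor DNAJC1 without ACBI1 replicate 2 (adjusted p 0.0713). In GENCODE 29, 23.2% of the exonic bases of DNAJB11 also lie in exons of other genes, so that its counts carry some uncertainty. The other 6 ER members had log2 changes from -0.48 to -0.12 and were not called. Among them was DNAJC10, a disulfide reductase of the ER and the DNAJC gene with the highest level, at 278 and 248 CPM with DMSO and 230 and 208 CPM with ACBI1 (log2 change -0.27, SE 0.17, edgeR adjusted p 0.316).

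Promoters of 5 of the called ER members are shown (DNAJC1 was not matched) because genes of this compartment are known to share the ER stress element, a CCAAT box followed after any 9 bases by a CCACG box. RefSeq windows on GRCh38.p14, from 250 bases before a start site to 50 bases after it, were found by symbol for 58 of the 64 members. Searched on both strands, the full element was in 25 of 27305 genes with a window (0.0916%). The members holding it were HSPA5, with 1 match, and HSP90B1, with 2. Only exact matches within the windows count, so that any of these genes may hold further elements that differ from it by a base. In the stretches below, written 5′ to 3′ on the strand of the gene, capitals mark CCAAT on either strand (ATTGG on the other strand) and, where the full element is present, its CCACG box (CGTGG on the other strand). A further element of the unfolded protein response, TGACG followed directly by TGG, was in 0.927% of genes with a window and in 1 member, DNAJC10. CCAAT alone was in 39.7% of genes with a window and in 25 of the 58 members. It was in 9 of the 10 members called lower that had a window, and in 2 of the 2 called higher. The stretches are chr9:125241374-125241463 on the minus strand for HSPA5, and on the plus strand chr12:103930200-103930349 for HSP90B1, chr7:108569754-108569863 for DNAJB9, chr3:186570540-186570689 for DNAJB11 and chr13:95677009-95677108 for DNAJC3.
HSPA5: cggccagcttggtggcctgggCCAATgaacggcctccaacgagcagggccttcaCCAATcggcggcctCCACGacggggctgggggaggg
HSP90B1: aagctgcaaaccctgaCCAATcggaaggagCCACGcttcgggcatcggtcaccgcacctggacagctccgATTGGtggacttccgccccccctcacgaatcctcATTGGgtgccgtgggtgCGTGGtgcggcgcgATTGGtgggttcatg
DNAJB9: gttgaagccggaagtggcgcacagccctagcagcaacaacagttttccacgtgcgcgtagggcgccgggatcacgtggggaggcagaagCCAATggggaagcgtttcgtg
DNAJB11: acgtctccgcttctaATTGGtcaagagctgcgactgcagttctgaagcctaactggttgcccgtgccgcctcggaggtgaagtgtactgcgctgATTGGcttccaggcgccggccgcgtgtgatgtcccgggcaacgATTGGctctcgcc
DNAJC3: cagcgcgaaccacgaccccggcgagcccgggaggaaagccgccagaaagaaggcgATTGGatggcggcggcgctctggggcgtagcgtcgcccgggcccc

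Genes outside the families that work in the ER and in its stress response were examined beside them. Of 16 such genes, all 16 were tested, 10 were called lower, 6 were not called, and the median log2 change was -1.35. Over all genes, 10.6% were called lower. The largest called changes were those of MANF, a secreted folding factor of the ER (log2 change -2.09, adjusted p 0.00753), and of XBP1. XBP1, a transcription factor of the unfolded protein response, was at 287 and 325 CPM with DMSO and 72.4 and 86.9 CPM with ACBI1 (log2 change -1.94, adjusted p 0.00365). The log2 change of CRELD2 was -1.76 (adjusted p 0.00972), and that of HERPUD1, which acts in ER-associated degradation, -1.64 (adjusted p 0.00412). No single library left out ended these 4 calls. The full ER stress element was found in 5 of the 15 genes of this list with a window. The element is known from genes of this kind, so that finding it in this list is no separate result. The matches are printed on the strand of the element, with its fixed letters in capitals, beside those of the members, to show how the spacer differs. They lie at chr9:125241391-125241409 (minus strand) for HSPA5, chr12:103930216-103930234 (plus) and chr12:103930321-103930339 (minus) for HSP90B1, chr22:28800603-28800621 (minus) for XBP1, chr19:12938384-12938402 (minus) for CALR, chr5:179698778-179698796 (plus) for CANX, chr2:10812853-10812871 (minus) for PDIA6 and chr22:49918554-49918572 (minus) for CRELD2. CANX fell (log2 change -1.27, adjusted p 0.00854), whereas CALR and PDIA6 were not called (adjusted p 0.0596 for each); these 3 are named for their promoters.
HSPA5: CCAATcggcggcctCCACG
HSP90B1, far: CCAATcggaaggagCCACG
HSP90B1, near: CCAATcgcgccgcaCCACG
XBP1: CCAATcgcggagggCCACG
CALR: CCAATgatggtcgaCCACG
CANX: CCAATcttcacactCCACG
PDIA6: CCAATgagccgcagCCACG
CRELD2: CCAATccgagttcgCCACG

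The heat-inducible HSP70 genes of the cytosol had lower values with ACBI1. HSPA1A and HSPA1B encode nearly the same protein, the HSP70 that cells make under heat or proteotoxic stress. HSPA1B was at 44.1 and 41.6 CPM with DMSO and at 18.4 and 25.4 CPM with ACBI1 (log2 change -0.97, SE 0.20, edgeR adjusted p 0.0272). HSPA1A was at 52.6 and 56.3 CPM against 21.2 and 38.5 CPM and was not called (log2 change -0.87, SE 0.29, edgeR adjusted p 0.0902; DESeq2 adjusted p 0.0385). The groups did not overlap in either gene, but the 2 cannot be counted apart with certainty: 71.3% of the 50-base words in HSPA1A transcripts also occur in HSPA1B, and 36.5% of the exonic bases of HSPA1B lie in exons of another gene. With their counts summed, the pair had a log2 change of -0.91 and an adjusted p of 0.0525, which ended the call, as did leaving out ACBI1 replicate 1 for HSPA1B (log2 change -0.75, adjusted p 0.133). HSPA6, an HSP70 gene that is nearly silent without stress, was at 4.8 and 3.0 CPM with DMSO and at 1.6 and 1.77 CPM with ACBI1 (log2 change -1.21, SE 0.36, edgeR adjusted p 0.0659). It was called lower in 2 of 5 alternatives with all 4 libraries and no replicate term. Of the 50-base words of HSPA6, 45.5% also occur in HSPA7.

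None of the other HSP70 genes of the cytosol was called. HSPA8, the most abundant of them, also strips clathrin from vesicles. Its level was 1123 and 805 CPM with DMSO and 1176 and 903 CPM with ACBI1, so that the groups overlapped (log2 change 0.11, SE 0.24, edgeR adjusted p 0.794). HSPA2, best known from the testis, was at 8.44 and 12.3 CPM against 11.6 and 14.0 CPM, and HSPA1L, a testis-type copy of the inducible genes, at 0.774 and 1.21 against 0.838 and 1.07 CPM. Both overlapped between groups and were not called. HSPA14, which works at the ribosome, and the atypical members HSPA12A and HSPA12B had slightly higher values in both ACBI1 libraries, with log2 changes of 0.31, 0.27 and 0.67, and none was called (adjusted p 0.284, 0.342 and 0.386). HSPA12B was the member nearest to the count threshold, with 14 and 11 counts with DMSO and 27 and 14 with ACBI1.

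**Figure D2:**
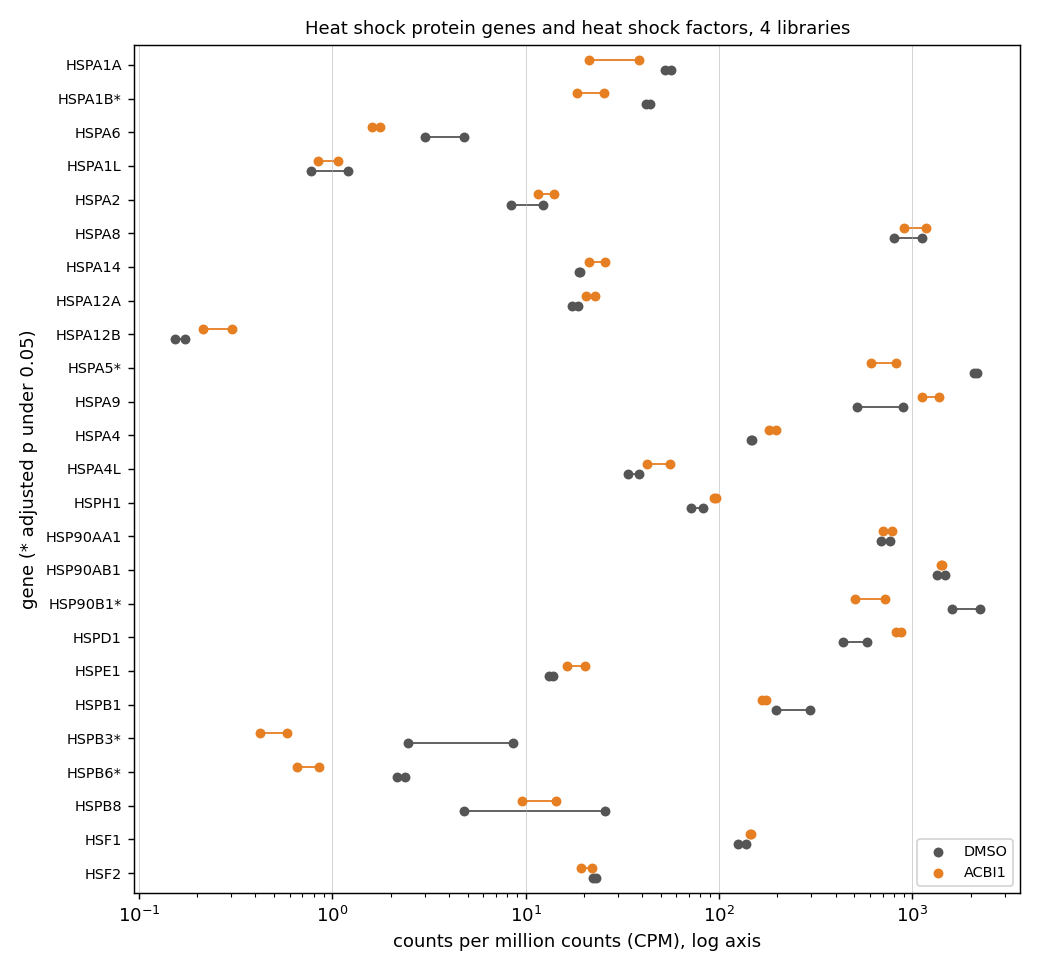
Level in CPM (horizontal log axis) of the 25 members outside the J-domain families in each library, with a line joining the 2 libraries of a group (DMSO grey, ACBI1 orange); genes with an adjusted p under 0.05 carry an asterisk. HSPA5 and HSP90B1 lie at 1605 CPM or above in the DMSO libraries and at 820 CPM or below with ACBI1, while HSP90AA1 and HSP90AB1 overlap between groups.

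The HSP110 genes, whose products release ADP from HSP70 and so let clients go, had values that were a little higher with ACBI1 in each library. HSPA4 was at 147 and 146 CPM with DMSO and at 196 and 181 CPM with ACBI1 (log2 change 0.36, SE 0.16, edgeR adjusted p 0.168). HSPA4L was at 33.9 and 38.7 CPM against 42.6 and 55.9 CPM (log2 change 0.44, edgeR adjusted p 0.167), and HSPH1 at 71.7 and 82.8 CPM against 96.4 and 94.5 CPM (log2 change 0.30, edgeR adjusted p 0.228). The groups of all 3 were apart, yet none was called in the main fit. With the replicate number as a further term, HSPA4 and HSPA4L were called higher (edgeR adjusted p 0.0495 and 0.0163), beside 19.4% of all genes. HSPH1 was not (edgeR adjusted p 0.0775).

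The cytosolic HSP90 genes overlapped between groups. HSP90AB1, the constitutive form, was at 1478 and 1342 CPM with DMSO and at 1399 and 1418 CPM with ACBI1, a log2 change of 0.00 (SE 0.18, edgeR adjusted p 0.995). HSP90AA1, the inducible form, was at 764 and 686 CPM against 701 and 779 CPM (log2 change 0.03, SE 0.18, edgeR adjusted p 0.923). The ACBI1 libraries fell within or beside the range of the DMSO libraries in both. Reads from these genes can be lost to processed copies, since 16.6% and 11.3% of the 50-base words of HSP90AB1 and HSP90AA1 also occur in transcripts of other genes.

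The heat shock element, the binding sequence of HSF1 and HSF2, was searched on both strands as GAA, TTC and GAA with any 2 bases between them. It was in 0.608% of genes with a window and in 7 of the 58 members: DNAJA1, DNAJB6, HSP90AA1, HSP90AB1, HSPA6, HSPA8 and HSPD1. None of these 7 was called in the main fit. With all 4 libraries and no replicate term, HSPD1 was called higher in 5 of 6 alternatives and HSPA6 lower in 2 of 5. With the replicate term, HSPD1 was called higher, and HSPA6 and DNAJA1 lower, beside 41.3% of all genes called. DNAJB6, HSP90AA1, HSP90AB1 and HSPA8 were called in none of these fits. Only exact matches within the windows count, so that a gene without one may still hold a heat shock element. Of the 12 genes of the cytosolic heat-inducible list, 6 held a match. HSPA1B and DNAJB1, which were called lower, held none. HSPA8 is shown because it holds 2 matches, which begin 230 and 55 bases before the start site and lie on opposite strands, in chr11:123062177-123062376 on the minus strand of GRCh38.p14, with the fixed letters of the element in capitals.
HSPA8: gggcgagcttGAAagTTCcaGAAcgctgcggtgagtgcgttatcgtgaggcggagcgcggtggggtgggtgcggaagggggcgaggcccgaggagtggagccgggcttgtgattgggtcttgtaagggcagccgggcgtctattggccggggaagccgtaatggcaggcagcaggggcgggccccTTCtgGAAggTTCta

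Neither heat shock factor gene was called. HSF1, the main activator of the cytosolic heat shock genes, was at 137 and 125 CPM with DMSO and at 144 and 147 CPM with ACBI1 (log2 change 0.15, SE 0.16, edgeR adjusted p 0.539). HSF2, which can pair with HSF1, was at 23.2 and 22.2 CPM against 22.1 and 19.4 CPM (log2 change -0.13, SE 0.17, edgeR adjusted p 0.654). The groups were apart in both, by less than their SE in the fit.

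Mitochondrial chaperones had higher values with ACBI1 among the folding machines and lower values among some J-domain genes. Of the 10 genes listed, 2 were called higher and none lower, and the median log2 change was 0.39. The calls are 20% of the list, near the 17.4% called over all genes. DNAJA3, a mitochondrial co-chaperone also called Tid1, rose from 104 and 82.0 CPM with DMSO to 147 and 155 CPM with ACBI1 (log2 change 0.70, SE 0.18, edgeR adjusted p 0.0471). DNAJC11, a J-domain protein linked to the cristae of the inner membrane, rose from 92.3 and 76.1 CPM to 143 and 143 CPM (log2 change 0.76, SE 0.17, edgeR adjusted p 0.0314). ACBI1 was 1.62 and 1.69 times as high, with no overlap in either gene. Neither was called without DMSO replicate 2, ACBI1 replicate 1 or ACBI1 replicate 2 (adjusted p 0.175, 0.145 and 0.176 for DNAJA3 and 0.108, 0.123 and 0.116 for DNAJC11), and 27.9% of the exonic bases of DNAJC11 lie in exons of THAP3 on the other strand.

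HSPA9, or mortalin, is the HSP70 of the mitochondrial matrix and drives protein import. It was at 893 and 516 CPM with DMSO and at 1369 and 1114 CPM with ACBI1, which did not pass (log2 change 0.82, SE 0.29, edgeR adjusted p 0.111). The DMSO libraries differed widely: without replicate 1 the log2 change was 1.27 (adjusted p 0.00363), and without replicate 2 it was 0.47 (adjusted p 0.247). HSPA9 was also called with DESeq2 (adjusted p 0.0409). HSPD1 was at 581 and 435 CPM with DMSO and at 868 and 821 CPM with ACBI1 (log2 change 0.73, SE 0.21, edgeR adjusted p 0.0586). This missed the threshold by little, and 5 of 6 alternatives with all 4 libraries and no replicate term called HSPD1 higher (adjusted p 0.00467 to 0.0570 over the 6). HSPE1, the lid of the HSPD1 chamber, was at 13.2 and 13.8 CPM against 16.4 and 20.2 CPM (log2 change 0.44, SE 0.20, edgeR adjusted p 0.188); 23.9% of its exonic bases lie in other genes.

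The balance between compartments can be read within each library, where the scaling plays no part. There were 1.85 and 2.68 counts of HSPA5 for each count of HSPA8 in the libraries given DMSO, and 0.697 and 0.673 in those given ACBI1. Counts of HSPA9 for each count of HSPA8 were 0.795 and 0.642 with DMSO and 1.16 and 1.23 with ACBI1. The ratio of HSP90B1 to HSP90AB1 was 1.09 and 1.67 against 0.361 and 0.509. No ratio overlapped between groups, and no test was run on them, since the smallest two-sided exact permutation p with 2 libraries against 2 is 0.333. The ratios restate the same counts as the changes above, so that their lack of overlap is no further support. Of single genes, 63.2% had no overlap, and the share over pairs of genes was not taken. The 12 ER members held 38.9% and 46.4% of the counts of all members with DMSO and 19.1% and 19.7% with ACBI1, and the 10 mitochondrial ones 15.3% and 10.8% against 27.2% and 25.4%. The share of the cytosolic heat-inducible list, whose median log2 change was -0.26, was 39.6% and 35.6% against 48.2% and 48.7%. HSPD1 and HSPE1, which work in mitochondria, are counted in this list as well as in the mitochondrial one, so that these shares are not separate. HSPD1 was at 581 and 435 CPM with DMSO and at 868 and 821 CPM with ACBI1, and its rise enters each of these shares. The level of all members together was 11600 and 11222 CPM with DMSO and 9607 and 9150 CPM with ACBI1, so that a share can be higher where the level is not. Per kilobase of exon, HSPA5 had the highest mean level of the members with DMSO, at 542 CPM per kb, before HSP90AB1 at 473 and HSP90B1 at 410. With ACBI1, HSP90AB1 led at 473 CPM per kb, followed by HSPA8 at 214, HSPD1 at 199 and HSPA5 at 183, while HSP90B1 stood at 131.

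**Figure D3:**
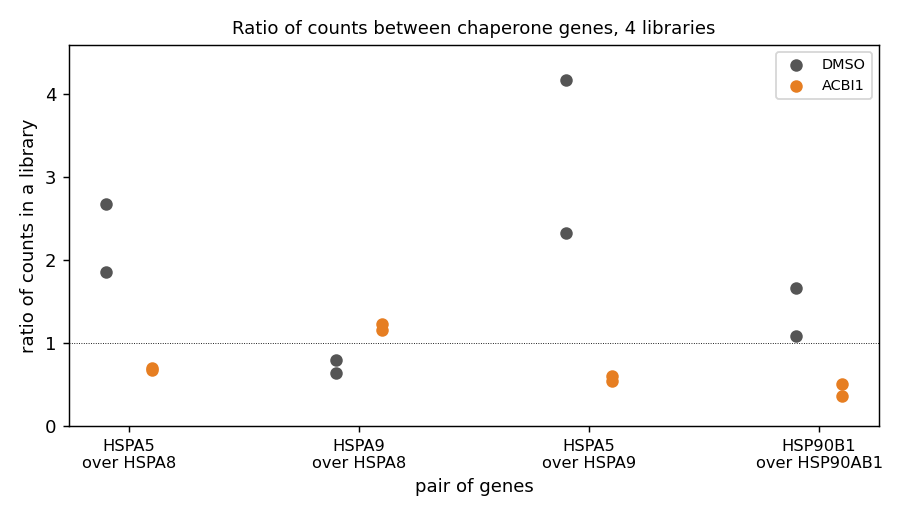
Ratio of counts between pairs of chaperone genes (vertical axis, linear from 0) within each of the 4 libraries, DMSO in grey and ACBI1 in orange. HSPA5 exceeds HSPA8 and HSPA9 in both DMSO libraries, by up to 4.17 for HSPA9, and falls below both in the ACBI1 libraries, where HSPA5 over HSPA9 is 0.599 and 0.546.

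Both small heat shock protein genes that fell had low levels. Of 7 such genes matched, 4 were members, 2 were called lower and none higher, beside 10.6% and 6.75% of all genes. HSPB3, best known from muscle, was at 2.46 and 8.63 CPM with DMSO and at 0.424 and 0.580 CPM with ACBI1, on 821 counts against 76 (log2 change -3.47, SE 0.66, edgeR adjusted p 0.0217). Its groups were apart, but the DMSO libraries differed several-fold: without DMSO replicate 2 the log2 change was -2.30 (adjusted p 0.00906), and without ACBI1 replicate 1 the call was lost (log2 change -3.24, adjusted p 0.0637). HSPB6, or HSP20, known from smooth muscle, was at 2.38 and 2.15 CPM with DMSO and 0.849 and 0.656 CPM with ACBI1 (log2 change -1.59, SE 0.35, edgeR adjusted p 0.0309). It was not called without ACBI1 replicate 1 or 2 (adjusted p 0.0850 and 0.123), and 38.2% of its exonic bases lie in exons of a gene on the other strand.

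HSPB1, or HSP27, the most abundant small heat shock protein gene here, was at 196 and 293 CPM with DMSO and at 174 and 167 CPM with ACBI1 (log2 change -0.52, SE 0.23, edgeR adjusted p 0.168). HSPB8, which works with BAG3 in clearing misfolded proteins, had the widest spread, at 4.79 and 25.6 CPM with DMSO and at 9.55 and 14.4 CPM with ACBI1 (log2 change -0.34, SE 0.70, edgeR adjusted p 0.775). The DMSO libraries enclosed the ACBI1 ones, and its direction depended on a single library. Without DMSO replicate 1 HSPB8 was called lower (log2 change -1.09, adjusted p 0.0188), and without DMSO replicate 2 it was called higher (log2 change 1.32, adjusted p 0.0350).

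**Figure D4:**
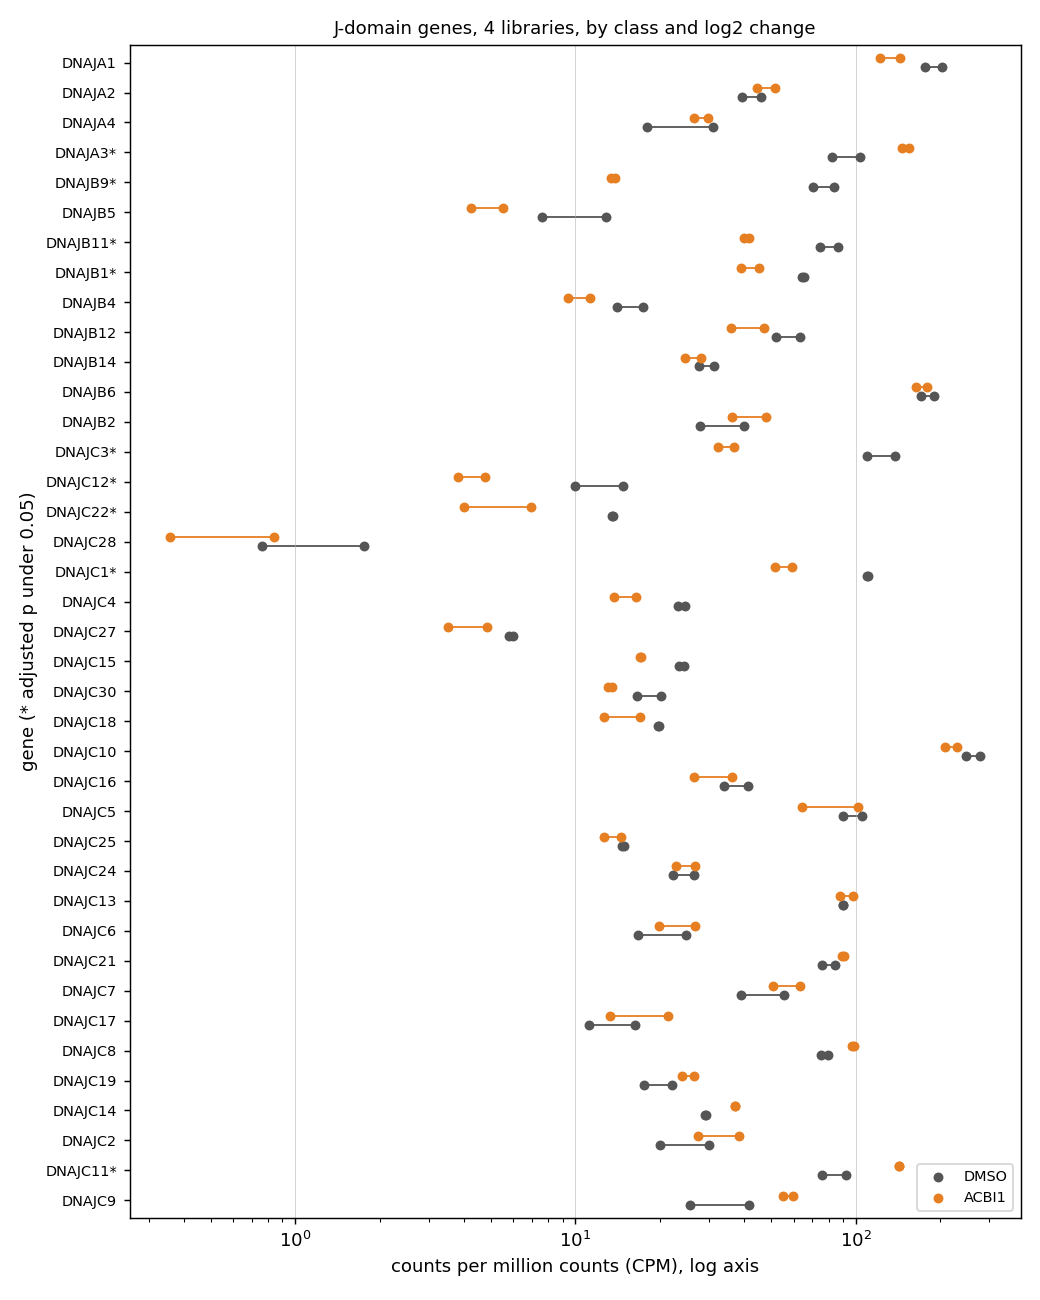
Level in CPM (horizontal log axis) of the 39 J-domain members in each library, ordered by class and log2 change, with a line joining the 2 libraries of a group (DMSO grey, ACBI1 orange); an asterisk marks an adjusted p under 0.05. The 9 called genes are DNAJA3 and DNAJC11, higher with ACBI1, and DNAJB9, DNAJB11, DNAJB1, DNAJC3, DNAJC12, DNAJC22 and DNAJC1, lower.

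Of the 39 J-domain members, 2 were called higher and 7 lower. Together these are 23.1%, near the 17.4% called over all genes. DNAJB1, the heat-inducible HSP40 of the cytosol and the main partner of HSPA1A and HSPA8, was at 65.5 and 64.5 CPM with DMSO and at 38.9 and 45.3 CPM with ACBI1 (log2 change -0.63, SE 0.16, edgeR adjusted p 0.0441). The groups were apart, but the call was near the threshold and was lost with each single library left out: without DMSO replicate 1 or 2 (adjusted p 0.0744 and 0.0919) and without ACBI1 replicate 1 or 2 (adjusted p 0.265 and 0.11). DNAJC12, which binds the hydroxylases of aromatic amino acids, fell from 14.7 and 9.94 CPM to 4.75 and 3.81 CPM (log2 change -1.53, SE 0.30, edgeR adjusted p 0.0225; adjusted p 0.0565 and 0.0779 without ACBI1 replicate 1 or 2). DNAJC22 fell from 13.5 and 13.6 CPM to 6.95 and 4.01 CPM (log2 change -1.31, SE 0.31, edgeR adjusted p 0.0389), and was not called without ACBI1 replicate 2 (log2 change -0.97, adjusted p 0.123).

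The most abundant genes of the other classes were not called. DNAJA1, a cytosolic partner of HSPA8, was at 204 and 177 CPM with DMSO and at 123 and 144 CPM with ACBI1, without overlap (log2 change -0.51, SE 0.18, edgeR adjusted p 0.0981). DNAJB6, which holds back protein aggregation, was at 191 and 172 CPM against 179 and 164 CPM and overlapped between groups (log2 change -0.08, SE 0.16, edgeR adjusted p 0.771). The remaining 27 J-domain members ranged in log2 change from -1.09 to 0.77, with 14 positive and 13 negative, and their adjusted p ran from 0.0596 to 0.945.

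Partners of HSP90 and HSP70 in any compartment, and other chaperones, were examined beyond the families. Of 18 genes listed as partners of HSP90, with TRAP1 among them, 6 were called higher and none lower, with a median log2 change of 0.31. Over all genes, 6.75% were called higher and 10.6% lower. TRAP1, the HSP90 of mitochondria, rose from 253 and 176 CPM with DMSO to 406 and 417 CPM with ACBI1 (log2 change 0.94, adjusted p 0.0353). Of its exonic bases, 29.3% lie in exons of DNASE1 on the other strand, so that its counts carry some uncertainty. FKBP5 and PPID, prolyl isomerases that bind HSP90, had log2 changes of 0.94 and 0.83 (adjusted p 0.0432 and 0.0262), and PTGES3, or p23, which closes the HSP90 clamp, one of 0.71 (adjusted p 0.0480). Each of these 4 lost its call without DMSO replicate 2, ACBI1 replicate 1 or ACBI1 replicate 2, with adjusted p from 0.0719 to 0.197. The 8 genes of the cytosolic chaperonin TRiC had log2 changes from 0.24 to 0.59, each positive, and none was called, with 1 at an unadjusted p under 0.05.

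Among 17 co-chaperones of HSP70, 4 were called lower and 1 higher. The falls included HYOU1, the HSP110-like exchange factor of the ER, from 1009 and 1054 CPM to 473 and 407 CPM (log2 change -1.23, adjusted p 0.0104, and 0.0561 without ACBI1 replicate 2). SIL1, the other exchange factor of BiP, had a log2 change of -0.73 (adjusted p 0.0272), SEC63, the J-domain protein of the ER translocon, one of -0.73 (adjusted p 0.0462), and BAG3, a heat-inducible partner of HSPB8, one of -0.81 (adjusted p 0.0384). These 3 calls were each lost without ACBI1 replicate 1 (adjusted p 0.117, 0.105 and 0.205) or 2 (adjusted p 0.136, 0.228 and 0.0602), and BAG3 also without DMSO replicate 2 (adjusted p 0.0863), SIL1 and SEC63 without DMSO replicate 1 (adjusted p 0.0503 and 0.0834). The gene called higher, named after its values were seen, was STUB1, a ubiquitin ligase that tags clients of HSP70 and HSP90 (log2 change 0.67, adjusted p 0.0365); its call was lost with each single library left out, with adjusted p from 0.0697 to 0.193. Of the exonic bases of STUB1, 42.4% lie in exons of JMJD8 on the other strand. No call fell on 6 prefoldin and 5 mitochondrial quality control genes (0 at an unadjusted p under 0.05), and the alpha-crystallin genes were too rare to test. Over all 75 partner genes, 72 were tested, 7 were called higher and 14 lower, against 6.75% and 10.6% of all genes.

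**Figure D5:**
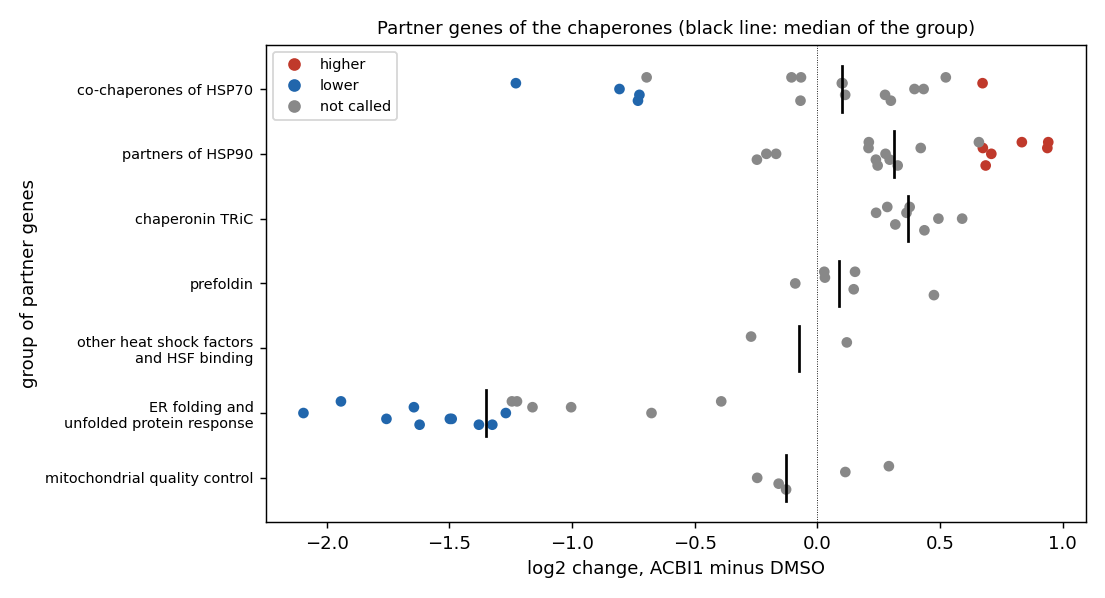
Log2 change (ACBI1 minus DMSO, horizontal axis) of the 72 partner genes tested, by group, with a black line at the median; red and blue points have an adjusted p under 0.05. The ER group lies wholly below 0 with a median of -1.35, and the HSP90 partners hold 6 of the 7 genes called higher.

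The 9 matching genes left out for low counts were DNAJB3, DNAJB7, DNAJB8, DNAJB13, HSPA7, HSPA13, HSPB2, HSPB7 and HSPB9. DNAJB13 lay nearest to the threshold, with 9 and 3 counts with DMSO and 5 and 7 with ACBI1. HSPA13, an HSP70-like protein of the ER, had 2 and 4 counts against 2 and 2. DNAJB7, DNAJB8, HSPA7, HSPB2 and HSPB7 had 0 counts throughout, and a floor of 3 counts puts their upper limit at 0.0335 to 0.0458 CPM, depending on the library. For HSPA7 and HSPB2 this is uncertain, because 56.3% of the 50-base words of HSPA7 occur in HSPA6 and 59.7% of the exonic bases of HSPB2 lie in other genes.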

How the data were processed

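RNA-seq reads of 4 libraries were used as whole-number counts per gene symbol, as deposited by the authors. Per the submitters' processing notes, TopHat2 2.1.1, HTSeq 0.11.0 and the build hg38 were named; the annotation and strand setting are not given in the sources used here. The 5 lines for reads given to no gene, 13.9% to 15.4% of the reads listed, stayed out of library sizes. Genes were filtered with edgeR's filterByExpr (minimum count 10, minimum total 15), scaled by TMM and tested on treatment alone with edgeR 4.0.16 in R 4.3.3 (glmQLFit, glmQLFTest, two-sided, Benjamini-Hochberg over all genes). The test was also run on simulated data with known changes. SE is the log2 change divided by the square root of F. Counting error alone is covered by the floor of 3 counts. GENCODE 29 (GRCh38), matched by symbol for 63 of 64 members, gave exonic length, exonic overlap and 50-base words shared between genes; promoter windows are from RefSeq. Members and lists were chosen with earlier results of these data known. The text names all members outside the J-domain families, each called J-domain gene and the most abundant gene of each class, the members nearest the count threshold, and the 4 called partner genes with the largest change in each group; STUB1, CANX, CALR and PDIA6 were named outside this rule, after their values were seen. Alternatives were DESeq2 size factors, scaling by library size, 2 other filters, a replicate term, DESeq2 1.42.0, limma-voom (limma 3.58.1), a threshold of 0.01 and fits without 1 of the 4 libraries. HSPA1A and HSPA1B were summed in an alternative chosen after seeing the data.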

Additional observations from a re-analysis of the deposited data

How the results depend on the processing

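With the replicate number as a block, 34 members were called, 11 higher and 23 lower (41.3% of all genes), and 38 partner genes, 17 higher and 21 lower. The labels do not say what a replicate number stands for; same-numbered libraries deviated together with r = 0.442 across genes. At a threshold of 0.01, 3 members and 8 partner genes were called, each lower, and 0 of either higher, beside 4.09% of all genes. Testing every gene with at least 1 count, or DESeq2, called 21 members each, 5 of them higher, beside 16.8% and 23.5% of all genes. With 1 library left out, which leaves an arm with a lone library assumed to vary like the other group, 5 to 20 members were called (0 to 5 higher, 5 to 15 lower) and 9 to 24 partner genes (0 to 7 higher, 9 to 17 lower); fewer libraries enter these fits. Some directions turned. Scaling by library size gave log2 changes of 0.0860 for HSP90AB1, 0.0238 for HSPA1L and 0.0078 for DNAJB6, and ended the calls of DNAJB1 (adjusted p 0.0567) and SEC63 (adjusted p 0.0598). HSPB8 had 0.0594 with the block and 0.10 with limma-voom. With 1 library left out, log2 changes ranged from -0.0562 to 0.115 for HSP90AA1, -0.0740 to 0.0736 for HSP90AB1, -0.34 to 0.29 for HSPA1L, -0.12 to 0.37 for HSPA8, -1.09 to 1.32 for HSPB8 and -0.16 to 0.0020 for DNAJB6. The cause was not tested. The median log2 change of the members stayed between -0.12 and -0.01. Of the 14 called members, 13 stayed called in each fit on all 4 libraries at 0.05 that tested them, apart from HSPA1B when summed with HSPA1A (adjusted p 0.0525), and 3 with any library left out.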
